A study of Homo sapiens with 9 samples.

Results

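The genes described here are 45 genes of protein folding in the endoplasmic reticulum (ER), of ER-associated degradation (ERAD) and of the unfolded protein response (UPR), picked by symbol from the 25105 genes of an RNA-seq table. They comprise 12 chaperones and co-chaperones, 7 enzymes of disulfide formation, 10 ERAD genes, 11 genes of the translocon and signal peptidase, 2 KDEL receptors, and 3 UPR genes (XBP1, ATF6 and ERN1). The cells were LNCaP, an established line from human prostate cancer that carries the androgen receptor and responds to androgen. Cells were plated in medium with 5% charcoal-treated serum, starved of steroids for 24 h and then treated for 18 h. The 3 groups, with 3 biological replicates each, were 1 nM R1881 with 10 µM MEL-6, 1 nM R1881, and vehicle (DMSO). R1881 is a synthetic androgen, and MEL-6 is a compound that the study was set up to link to the androgen receptor. All groups shared the starvation, no group received MEL-6 without R1881, and a single cell line, dose and time were used.

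Secreted and membrane proteins enter the ER through the Sec61 channel, lose their signal peptide, fold with the help of chaperones and protein disulfide isomerases, and are sent to the proteasome by ERAD if they do not fold. Unfolded protein in the ER lumen is sensed by IRE1 (gene ERN1), ATF6 and PERK (gene EIF2AK3), whose signals raise the transcription of chaperone and ERAD genes. IRE1 acts by splicing XBP1 mRNA, ATF6 by release of its cytosolic part in the Golgi, and PERK by slowing translation and raising ATF4. Prostate luminal cells are secretory cells. Splicing of XBP1 and cleavage of ATF6 cannot be read from a gene-level mRNA value.

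The ER stress response element (ERSE), known from the promoters of ER chaperone genes, is shown first because it is the sequence through which ATF6 and spliced XBP1 are known to act. Promoter windows of 300 bases, 250 before and 50 after the gene start, were taken from RefSeq (GRCh38.p14) for the 39 members with an entry. The exact element, CCAAT, 9 bases of any kind, then CCACG, was searched on both strands. It stood in the windows of 7 of the 39 members (17.9%), against 0.0769% of all 35116 promoter windows of the same length. Since the element was defined on promoters of this family, that share is no independent result. A member counted if any of its windows held the element, and some members had more than 1 window. The share of members is thus not in the same unit as that of all windows, here and for the elements below. The matched sites follow in the direction of the element, with the fixed letters in capitals.
HSPA5: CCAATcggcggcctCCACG
HSP90B1, site 1: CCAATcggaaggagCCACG
HSP90B1, site 2: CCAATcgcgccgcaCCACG
CALR: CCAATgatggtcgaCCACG
CANX: CCAATcttcacactCCACG
CRELD2: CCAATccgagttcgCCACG
PDIA6: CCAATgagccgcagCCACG
XBP1: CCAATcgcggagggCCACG

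The related ERSE-II (ATTGG, 1 base of any kind, CCACG) was found in 3 members (7.69%), against 0.0541% of all windows. It shares its CCACG with the ERSE, so its figures are no independent result either. The sites of all 3 members are shown. Their genes had log2 changes of -0.032 (HYOU1, not called), -0.66 (SDF2L1) and 0.19 (HERPUD1) when MEL-6 was added. A link between the element and these changes was not tested.
HYOU1, both sites: ATTGGaCCACG
SDF2L1: ATTGGtCCACG
HERPUD1: ATTGGgCCACG
The 8-base core TGACGTGG of the UPR element, known to be bound by spliced XBP1, was found in 5 members (12.8%, against 0.729% of all windows), which were HYOU1, DNAJC10, SEC62, SSR3 and KDELR3. In HYOU1 it overlapped one of the ERSE-II sites. The full androgen receptor site (AGAACA, 3 bases of any kind, TGTTCT) was in none of the 39 members and in 0.00285% of all windows, which says only that these letters were not in these windows.

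Whole windows are given for HSPA5, the best studied ERSE gene, and for CRELD2, the ERSE holder that rose most with R1881. The HSPA5 window is chr9:125241294-125241593 on the minus strand and the CRELD2 window is chr22:49918384-49918683 on the plus strand (both GRCh38.p14). Each is read 5′ to 3′ in the direction of the gene, so the CRELD2 element, which lies on the other strand, appears as its reverse complement. Capitals mark the fixed letters of the ERSE.
HSPA5 promoter: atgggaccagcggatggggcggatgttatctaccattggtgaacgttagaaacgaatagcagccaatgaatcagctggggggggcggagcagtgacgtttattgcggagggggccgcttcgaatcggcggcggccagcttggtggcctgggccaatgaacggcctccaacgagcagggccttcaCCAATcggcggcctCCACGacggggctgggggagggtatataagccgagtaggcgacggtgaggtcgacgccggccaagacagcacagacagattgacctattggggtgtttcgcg
CRELD2 promoter: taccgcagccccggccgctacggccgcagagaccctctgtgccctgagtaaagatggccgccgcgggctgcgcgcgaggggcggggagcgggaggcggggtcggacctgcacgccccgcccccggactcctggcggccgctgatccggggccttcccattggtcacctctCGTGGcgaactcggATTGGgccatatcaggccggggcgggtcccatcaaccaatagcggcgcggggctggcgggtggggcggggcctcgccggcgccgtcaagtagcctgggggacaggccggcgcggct
The first ERSE base of HSPA5 lay 66 bases before the gene start in this table.

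Levels are given as RPKM, which counts reads relative to gene length and to the size of the library, with 1 value for each gene and library. Estimated depth was 6.58 to 18.5 M (mega) reads per library. Relative to the first vehicle library it was 0.601, 1.08 and 0.947 with R1881 and MEL-6, 1.23, 1.18 and 1.69 with R1881, and 1.0, 0.651 and 0.817 with vehicle. Depth was thus higher in every R1881 library than in any other, and its part in the results was not tested. All 8 luminal prostate markers were above 0.5 RPKM in at least 1 library, with sums of 1515.5 to 1562.9, 4217.6 to 4401.6 and 1196.8 to 1254.0 RPKM with R1881 and MEL-6, R1881, and vehicle. The 4 androgen response genes FKBP5, KLK3, TMPRSS2 and STEAP4 summed to 700.7 to 724.4, 2934.9 to 3044.1 and 310.8 to 376.1 RPKM in the same order of groups. These sums were led by KLK3, which like TMPRSS2 was above vehicle with both agents (log2 1.01 and 1.26). FKBP5 was below vehicle with both agents (means of 7.99 and 9.53 RPKM, log2 -0.24). STEAP4 was near vehicle (means of 0.178 and 0.154 RPKM, log2 0.052). Basal (4 genes) and leukocyte (4 genes) marker sums stayed at or below 0.386 RPKM, with 3 of 4 genes of each list under 0.1 RPKM in all libraries. Fibroblast markers (6 genes, 3 under 0.1 RPKM in all libraries) summed to 3.29 to 3.74, 2.20 to 2.28 and 2.61 to 3.25 RPKM. Nearly all of this was COL1A1 (means of 3.28, 2.12 and 2.58 RPKM), and the other 5 stayed under 0.5 RPKM. Endothelial markers (3 genes, PECAM1 and CDH5 at or near 0) summed to 0.594 to 0.806, 0.388 to 0.486 and 0.928 to 1.22 RPKM, and their part in the results was not tested. In RNA from whole wells, fewer cells of a type and less RNA per cell cannot be told apart.

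All 45 members passed the filter for testing (at least 0.5 RPKM in at least 3 libraries). CALR was the highest in each group and DERL3 the lowest, as mean RPKM, which is a level per length. The family spanned 0.934 to 617 RPKM with R1881 and MEL-6, 1.45 to 924 RPKM with R1881, and 1.42 to 689.6 RPKM with vehicle. DERL3 and KDELR3 were the members with means under 5 RPKM in every group.

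**Figure D1:**
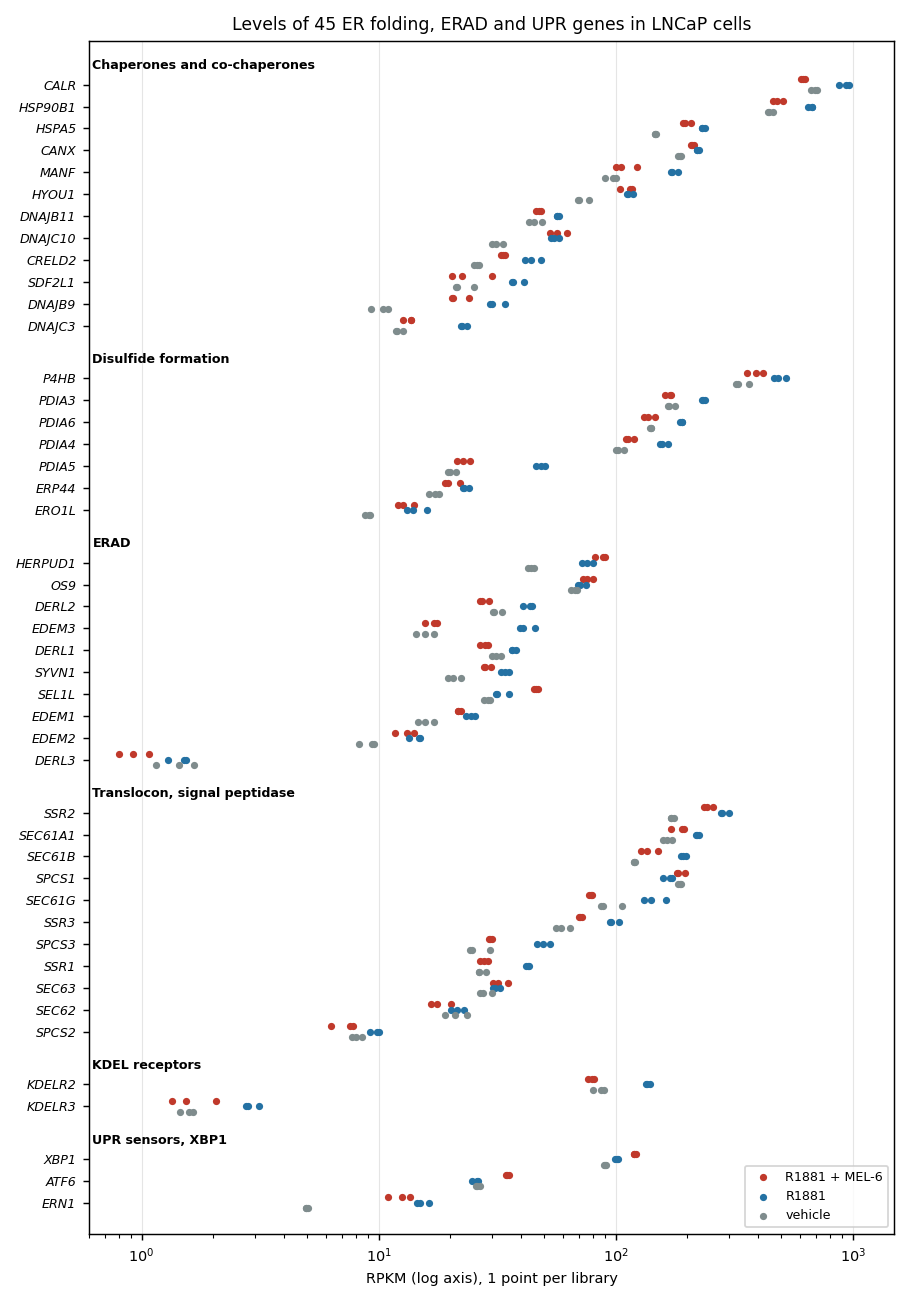
RPKM of the 45 genes on a log axis, with 1 point per library and the groups R1881 + MEL-6 (red), R1881 (blue) and vehicle (grey) from top to bottom in each gene's row, ordered by role and by R1881 mean. CALR stands highest and DERL3 lowest, and in most rows the blue points lie to the right of the grey ones.

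R1881 raised nearly the whole family. A gene is said to have risen or fallen where its adjusted p was under 0.05 (limma on log2(RPKM + 0.5), Benjamini-Hochberg over 13283 genes). With R1881 against vehicle, 39 of the 45 members rose and 1 fell, where 14.5% of all tested genes rose and 31.2% fell. The genes described were chosen with earlier results of these data known. Such contrasts with all genes, here and below, are thus no independent result. The median member change was 0.63 on the log2 scale, beside -0.12 for all tested genes. The members thus stood further above the typical gene than above 0. Of the 45, 27 rose by at least 0.5, as did 6.73% of all tested genes. In 41 members every R1881 library was above every vehicle library, as in 18.0% of all genes, and in 1 (SPCS1) every one was below, as in 39.9%. None of the 45 fell by at least 0.5, where 11.4% of all genes did. When libraries were scaled by median of ratios, the median of all genes was -0.0094 and the split of all genes was 2776 higher and 2532 lower, in place of 1930 and 4150.

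By role, all 12 chaperones and all 7 disulfide enzymes rose with R1881, with median log2 changes of 0.71 and 0.54. Of the 10 ERAD genes 8 rose and none fell (median 0.53), and OS9 and DERL3 were not called. Of the 11 translocon and signal peptidase genes 8 rose and 1 fell (median 0.63). Both KDEL receptors rose (median 0.70), as did 2 of the 3 UPR genes (median 0.16).

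Adding MEL-6 to R1881 lowered most of the same family and raised a few of its members. With R1881 and MEL-6 against R1881, 32 of the 45 members fell and 5 rose, where 20.6% of all tested genes fell and 31.4% rose. The median member change was -0.40, beside 0.075 for all tested genes (-0.017 for all genes with median-of-ratios scaling, when 3259 genes were higher and 3781 lower in place of 4166 and 2735). A fall of at least 0.5 was seen in 13 members, as in 7.42% of all genes, and a rise of that size in none, where 16.3% of all genes had one. Libraries did not overlap in 34 members that were lower and 5 that were higher with MEL-6, as in 23.9% and 35.8% of all genes. By role, 9 of 12 chaperones fell (median -0.43), 6 of 7 disulfide enzymes fell (median -0.45), 5 of 10 ERAD genes fell and 2 rose (median -0.21), 9 of 11 translocon genes fell and 1 rose (median -0.41), both KDEL receptors fell (median -0.73), and 1 UPR gene fell while 2 rose (median 0.25). The 5 that rose were the ERAD genes HERPUD1 and SEL1L, the UPR genes XBP1 and ATF6, and the signal peptidase subunit SPCS1.

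Both comparisons use the same 3 R1881 libraries, so a gene whose R1881 value is high by chance is pushed apart in opposite directions in them. Side by side, of the 39 members that rose with R1881, 30 fell with MEL-6, 3 rose (HERPUD1, SEL1L and XBP1) and 6 were not called (CANX, HYOU1, DNAJC10, ERO1L, EDEM1 and EDEM2). The comparison of R1881 and MEL-6 with vehicle gives the level reached with MEL-6. In it 22 of 45 members were higher and 4 lower, where 17.2% of all tested genes were higher and 20.8% lower, and the median member change was 0.18, beside -0.012 for all genes. Of the 45, 7 were higher by at least 0.5 (DNAJB9, HYOU1, DNAJC10, HERPUD1, SEL1L, SSR2 and ERN1), as in 6.70% of all genes, and none was lower by that much, where 5.46% of all genes were. Libraries did not overlap in 24 members that were higher and 5 that were lower, as in 21.6% and 24.9% of all genes. The 4 lower members were CALR, DERL1, DERL2 and DERL3, with changes of -0.16, -0.16, -0.17 and -0.41, and none of these 4 calls held under every alternative setting.

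**Figure D2:**
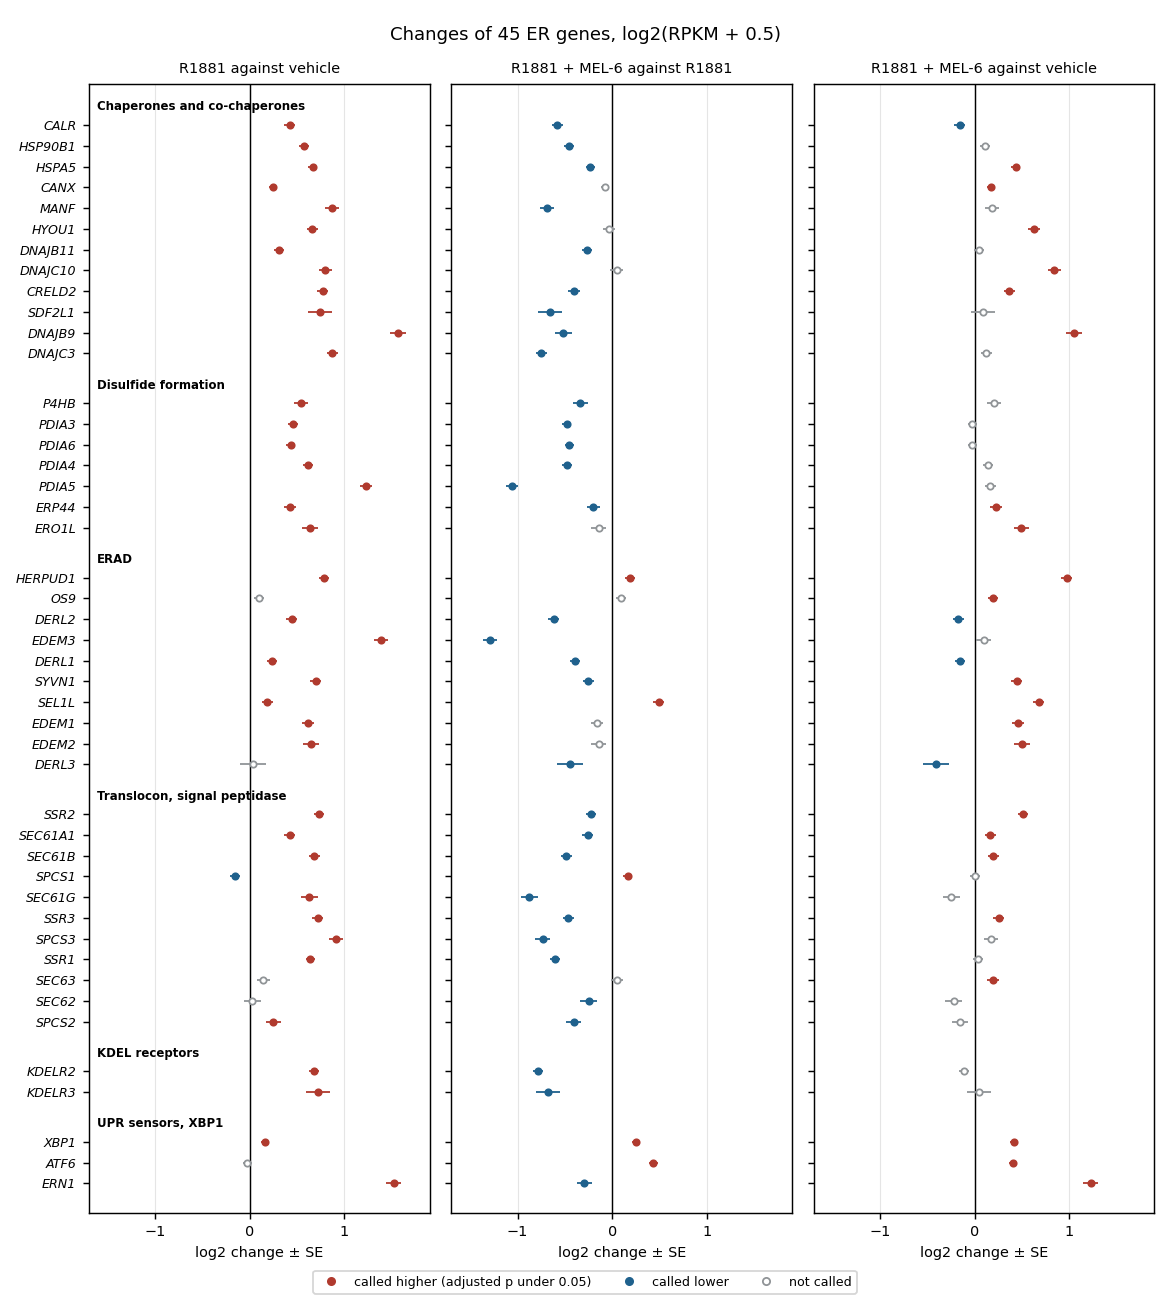
Log2 change with its standard error for each of the 45 genes, by role, in the 3 comparisons, with genes called higher in red, called lower in blue and not called as open circles. The left panel has 39 red points and 1 blue one, the middle panel 32 blue and 5 red, and the right panel 22 red and 4 blue.

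The cumulative plot sets 3 of the role groups beside all tested genes. With R1881 against vehicle the 3 groups lie to the right of all genes over nearly their whole range. With MEL-6 added they lie to the left over most of their range, and each line ends above 0, through DNAJC10 (0.046) among the chaperones, SEC63 (0.050) and SPCS1 (0.16) in the translocon group, and OS9 (0.095), HERPUD1 (0.19) and SEL1L (0.49) in ERAD. In the comparison with vehicle the lines lie closer to that of all genes, and the ERAD genes range from -0.41 (DERL3) to 0.97 (HERPUD1).

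**Figure D3:**
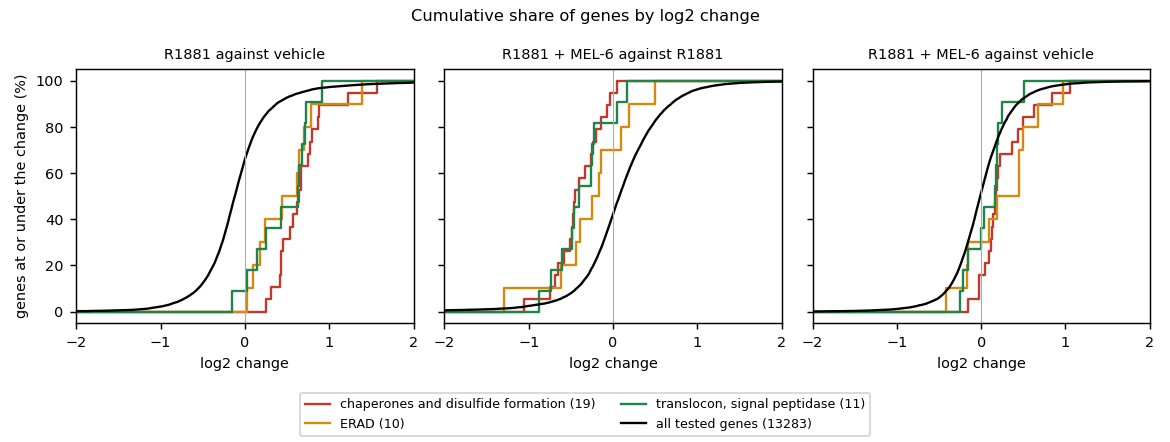
Percentage of genes at or under a given log2 change for chaperones and disulfide enzymes together (19 genes), ERAD genes (10), translocon and signal peptidase genes (11) and all tested genes (13283), in the 3 comparisons. The median of all genes is -0.12, 0.075 and -0.012 from left to right.

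Among the chaperones, HSPA5 (BiP, the Hsp70 of the ER lumen, on chromosome 9 at 127997127 to 128003661 in the files' GRCh37 coordinates) had 209, 196 and 192 RPKM with R1881 and MEL-6, 239, 231 and 231 RPKM with R1881, and 147, 147 and 147 RPKM with vehicle. The 3 groups did not overlap, and the MEL-6 libraries lay between the others. HSPA5 rose by 0.67 ± 0.048 (log2 change ± SE, adjusted p = 1.66e-06) with R1881, fell by 0.23 ± 0.048 (adjusted p = 0.00215) when MEL-6 was added, and was 0.43 ± 0.048 above vehicle with both (adjusted p = 6.77e-05).

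DNAJB9 (ERdj4, a BiP co-chaperone and known target of spliced XBP1) rose most of the 45 with R1881. It had 24.2, 20.4 and 20.5 RPKM with R1881 and MEL-6, 34.2, 30.0 and 29.4 RPKM with R1881, and 10.4, 10.9 and 9.28 RPKM with vehicle. All MEL-6 libraries were above all vehicle libraries and below all R1881 libraries. Its log2 changes were 1.57 ± 0.089 with R1881 (adjusted p = 2.67e-07), -0.52 ± 0.089 with MEL-6 added (adjusted p = 0.000706) and 1.05 ± 0.089 for both agents against vehicle (adjusted p = 1.1e-05). CRELD2, an ER-stress-inducible secreted protein, kept the same order, with 32.9, 33.4 and 34.2 RPKM, 41.3, 44.0 and 48.3 RPKM, and 26.5, 26.0 and 25.2 RPKM with R1881 and MEL-6, R1881, and vehicle. It rose by 0.77 with R1881, fell by 0.40 with MEL-6 added, and was 0.37 above vehicle with both (adjusted p = 3.04e-06, 0.00027 and 0.000963).

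A different picture was seen for HYOU1, DNAJC10 and CANX, which rose with R1881 and were not called with MEL-6 added. HYOU1 (GRP170, a large Hsp70-like chaperone and nucleotide exchange factor for BiP) had 104, 115 and 117 RPKM with R1881 and MEL-6, 112, 113 and 119 RPKM with R1881, and 76.8, 70.1 and 69.7 RPKM with vehicle. DNAJC10 (ERdj5, a reductase that works with BiP) had 62.2, 56.4 and 53.1 RPKM, 57.9, 54.7 and 53.4 RPKM, and 30.1, 33.6 and 31.3 RPKM in those groups. In both genes the MEL-6 and R1881 libraries overlapped and all of them were above vehicle. HYOU1 rose by 0.66 ± 0.061 with R1881, differed by -0.032 ± 0.061 with MEL-6 added (adjusted p = 0.683) and was 0.63 ± 0.061 above vehicle with both. DNAJC10 rose by 0.80 ± 0.068, differed by 0.046 ± 0.068 with MEL-6 added (adjusted p = 0.599) and was 0.84 ± 0.068 above vehicle. The sign of the MEL-6 difference turned for HYOU1 without 1 library and for DNAJC10 with median-of-ratios scaling, so neither has a direction. CANX (calnexin, the membrane lectin chaperone of glycoproteins) rose by 0.25 with R1881 and differed by -0.075 with MEL-6 added (adjusted p = 0.161), with a fall called under median-of-ratios scaling (-0.18, adjusted p = 0.00536).

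In CALR (calreticulin, the soluble lectin chaperone and a calcium store) the MEL-6 libraries lay below both other groups. It had 608, 617 and 627 RPKM with R1881 and MEL-6, 877, 934 and 960.5 RPKM with R1881, and 707, 669 and 693 RPKM with vehicle. CALR rose by 0.42 ± 0.056 with R1881 and fell by 0.58 ± 0.056 with MEL-6 added (adjusted p = 0.000152 and 1.24e-05). Its difference from vehicle, -0.16 ± 0.056 (adjusted p = 0.044), was not called without any 1 of the vehicle or MEL-6 libraries (adjusted p = 0.0602 to 0.129) and without R1881 replicate 2 or 3 (0.0722 and 0.0511).

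DNAJC3 (p58IPK, a BiP co-chaperone) and MANF (a secreted, ER-stress-inducible protein that binds BiP) both rose by 0.87 with R1881. DNAJC3 had 12.7, 13.7 and 13.7 RPKM with R1881 and MEL-6, 23.7, 22.2 and 22.4 RPKM with R1881, and 11.9, 12.7 and 12.0 RPKM with vehicle. MANF had 123, 105 and 99.9 RPKM, 174, 172 and 183 RPKM, and 97.5, 90.5 and 100.1 RPKM in those groups. For each gene the MEL-6 libraries overlapped the vehicle libraries. DNAJC3 fell by 0.75 ± 0.057 and MANF by 0.69 ± 0.075 with MEL-6 added (adjusted p = 2.18e-06 and 3.4e-05), and their differences from vehicle were 0.12 ± 0.057 and 0.18 ± 0.075 (adjusted p = 0.113 and 0.0803). MANF was called higher than vehicle without MEL-6 replicate 3 (adjusted p = 0.0282).

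SDF2L1 (a partner of ER DnaJ proteins) had 20.3, 22.5 and 30.2 RPKM with R1881 and MEL-6, 36.7, 36.6 and 41.1 RPKM with R1881, and 25.2, 21.4 and 21.2 RPKM with vehicle. Its MEL-6 libraries were spread widely and overlapped vehicle. It rose by 0.74 ± 0.128 with R1881 and fell by 0.66 ± 0.128 with MEL-6 added (adjusted p = 0.000878 and 0.00156). HSP90B1 (GRP94, the Hsp90 of the ER) averaged 484 ± 22.2, 665 ± 12.9 and 447 ± 11.1 RPKM (SD, n = 3) with R1881 and MEL-6, R1881, and vehicle, and DNAJB11 (ERdj3) averaged 47.3 ± 1.25, 56.9 ± 0.664 and 45.8 ± 2.76 RPKM. HSP90B1 rose by 0.57 and fell by 0.46, DNAJB11 rose by 0.31 and fell by 0.26, and neither differed from vehicle with both agents at the threshold (log2 0.11 and 0.049, adjusted p = 0.125 and 0.494).

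PDIA5, a protein disulfide isomerase, had the largest changes with R1881 and with MEL-6 added among the 7 enzymes of disulfide formation. It had 24.3, 21.5 and 22.8 RPKM with R1881 and MEL-6, 45.9, 48.3 and 50.4 RPKM with R1881, and 19.9, 19.7 and 21.3 RPKM with vehicle. Every R1881 library was above all 6 others. PDIA5 rose by 1.23 ± 0.061 with R1881, fell by 1.06 ± 0.061 with MEL-6 added (adjusted p = 1.05e-07 and 3.05e-07), and with both was 0.17 ± 0.061 above vehicle (adjusted p = 0.0546, and under 0.05 with either other scaling or without vehicle replicate 3 or MEL-6 replicate 2, at 0.0478 and 0.0378).

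The more abundant isomerases moved less. PDIA4 had 111, 112 and 119 RPKM with R1881 and MEL-6, 157, 154 and 166 RPKM with R1881, and 108, 102 and 101 RPKM with vehicle. PDIA3 (ERp57, which works with calnexin and calreticulin) had 172, 169.6 and 161 RPKM, 231, 238 and 234 RPKM, and 166, 168 and 178 RPKM in those groups. PDIA6 (P5) had 131, 137 and 146 RPKM, 186, 191 and 191 RPKM, and 141, 141 and 139 RPKM. In all 3 genes the R1881 libraries stood above the others, and in PDIA3 and PDIA6 the MEL-6 libraries overlapped vehicle. They rose by 0.61, 0.46 and 0.43 with R1881 and fell by 0.48, 0.48 and 0.45 with MEL-6 added, each with SE of 0.049 to 0.052. Against vehicle, R1881 with MEL-6 gave 0.14, -0.027 and -0.024 (adjusted p = 0.0611, 0.703 and 0.739). For PDIA4 every MEL-6 library was above every vehicle library, and the difference was called with either other scaling (adjusted p = 0.0322 and 0.0264).

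P4HB (PDI itself, also a subunit of prolyl hydroxylase) had 358, 389 and 419 RPKM with R1881 and MEL-6, 465, 484 and 522 RPKM with R1881, and 364, 321 and 328 RPKM with vehicle. It rose by 0.54 ± 0.075 and fell by 0.34 ± 0.075 (adjusted p = 0.000225 and 0.00364), and the MEL-6 libraries overlapped vehicle. With both agents P4HB was 0.20 ± 0.075 above vehicle (adjusted p = 0.0566). That difference was called with either other scaling and without vehicle replicate 1 or MEL-6 replicate 1 (adjusted p = 0.0207 to 0.0345). ERO1L (ERO1A, the oxidase that recharges PDI) had 14.0, 12.6 and 12.1 RPKM, 16.0, 13.9 and 13.1 RPKM, and 8.80, 9.09 and 9.20 RPKM in the same groups. ERO1L rose by 0.64 ± 0.081 with R1881 and was 0.49 ± 0.081 above vehicle with both agents, while its difference with MEL-6 added was -0.14 ± 0.081 (adjusted p = 0.16), with overlapping libraries, and was called as a fall with median-of-ratios scaling (-0.24, adjusted p = 0.0319). ERP44, which retains ERO1 and unassembled client proteins, rose by 0.42 (adjusted p = 0.000487) and averaged 20.2 ± 1.65, 23.3 ± 0.715 and 17.2 ± 0.832 RPKM with R1881 and MEL-6, R1881, and vehicle. Its fall of 0.20 with MEL-6 added (adjusted p = 0.0271) was not called without R1881 replicate 1, 2 or 3 or MEL-6 replicate 2 or 3 (adjusted p = 0.0522 to 0.102). Its rise over vehicle with both agents (0.22, adjusted p = 0.0228) was not called without vehicle replicate 1 or 2 or MEL-6 replicate 1 (adjusted p = 0.0536 to 0.0778).

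The ERAD genes did not move as 1 block. EDEM3, a mannosidase-like protein that marks glycoproteins for disposal (chromosome 1 at 184659625 to 184724041, GRCh37), had 17.6, 17.1 and 15.7 RPKM with R1881 and MEL-6, 45.6, 40.6 and 39.6 RPKM with R1881, and 15.7, 17.1 and 14.4 RPKM with vehicle. The MEL-6 and vehicle libraries overlapped, and every R1881 library was above them. EDEM3 rose by 1.39 ± 0.078 with R1881 and fell by 1.29 ± 0.078 with MEL-6 added (adjusted p = 2.66e-07 and 4.35e-07), and its difference from vehicle with both was 0.094 ± 0.078 (adjusted p = 0.378).

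Its relatives EDEM1 and EDEM2 had smaller differences with MEL-6. EDEM1 had 21.6, 22.2 and 21.7 RPKM with R1881 and MEL-6, 25.6, 23.3 and 24.6 RPKM with R1881, and 15.6, 17.1 and 14.7 RPKM with vehicle. EDEM2 had 13.2, 11.7 and 14.1 RPKM, 14.9, 13.4 and 14.9 RPKM, and 9.37, 9.55 and 8.23 RPKM in those groups. Both rose with R1881, by 0.62 and 0.64, and both were above vehicle with MEL-6 as well, by 0.45 and 0.50 (adjusted p = 0.000358 and 0.00118). The differences with MEL-6 added were -0.16 ± 0.064 and -0.15 ± 0.084 (adjusted p = 0.0534 and 0.173), and were called as falls with median-of-ratios scaling (adjusted p = 0.00557 and 0.0307). The EDEM1 fall was also called without vehicle replicate 2 or 3 (adjusted p = 0.0344 and 0.041).

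HERPUD1 and SEL1L were highest with MEL-6. HERPUD1 (HERP, a membrane scaffold of the ERAD complex and a known target of the UPR, on chromosome 16 at 56965748 to 56977793, GRCh37) had 89.8, 81.7 and 88.5 RPKM with R1881 and MEL-6, 75.7, 72.2 and 80.2 RPKM with R1881, and 45.1, 42.7 and 44.0 RPKM with vehicle. No library of a higher group fell into a lower group. It rose by 0.78 ± 0.056 with R1881 and was 0.97 ± 0.056 above vehicle with both (adjusted p = 1.7e-06 and 9.47e-07). Its further rise with MEL-6, 0.19 ± 0.056 (adjusted p = 0.017), was not called without R1881 replicate 1 or 2 (adjusted p = 0.0503 and 0.0796) or with median-of-ratios scaling (0.088, adjusted p = 0.217). SEL1L (the adaptor that holds the ubiquitin ligase HRD1) had 46.3, 47.2 and 45.1 RPKM, 35.5, 31.3 and 31.5 RPKM, and 28.9, 29.4 and 27.9 RPKM in those groups, again with no overlap. SEL1L rose by 0.49 ± 0.058 with MEL-6 added and stood 0.68 ± 0.058 above vehicle (adjusted p = 5.16e-05 and 1.16e-05). Its smaller rise with R1881, 0.18 ± 0.058 (adjusted p = 0.024), was not called without R1881 replicate 1 (adjusted p = 0.0993) or vehicle replicate 3 (0.0777).

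SYVN1 (HRD1, the ubiquitin ligase that SEL1L holds) went the other way with MEL-6. It had 29.8, 27.8 and 28.0 RPKM with R1881 and MEL-6, 34.0, 32.8 and 35.5 RPKM with R1881, and 22.2, 20.7 and 19.7 RPKM with vehicle, with no overlap between groups. SYVN1 rose by 0.70 ± 0.060 with R1881, fell by 0.25 ± 0.060 with MEL-6 added (adjusted p = 6.24e-06 and 0.00493) and was 0.45 ± 0.060 above vehicle with both.

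The derlins are membrane proteins of the retrotranslocation machinery. DERL2 had 27.2, 29.2 and 26.8 RPKM with R1881 and MEL-6, 44.2, 43.5 and 40.8 RPKM with R1881, and 30.3, 33.2 and 30.5 RPKM with vehicle. DERL1 had 26.9, 28.2 and 28.9 RPKM, 37.9, 36.6 and 36.4 RPKM, and 30.1, 31.3 and 32.7 RPKM in those groups. In both genes the MEL-6 libraries were below all vehicle libraries. DERL2 rose by 0.44 ± 0.058 and fell by 0.62 ± 0.058, and DERL1 rose by 0.24 ± 0.051 and fell by 0.40 ± 0.051, with adjusted p of 0.000142 and 1.09e-05, and of 0.00379 and 0.000111. Their differences from vehicle, -0.17 and -0.16 (adjusted p = 0.0385 and 0.0333), were not called with either other scaling, nor without 1 of several libraries. For DERL2 these were vehicle replicate 2 or 3, R1881 replicate 1 or 2, and MEL-6 replicate 1 or 3 (adjusted p = 0.0523 to 0.135). For DERL1 they were vehicle replicate 2 or 3, R1881 replicate 2, and MEL-6 replicate 1 or 2 (adjusted p = 0.0546 to 0.112).

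DERL3 was near the limit of what these libraries measure, with an estimated 27 to 106 reads per library. It had 1.08, 0.921 and 0.804 RPKM with R1881 and MEL-6, 1.54, 1.29 and 1.51 RPKM with R1881, and 1.15, 1.67 and 1.44 RPKM with vehicle. Its MEL-6 libraries were below all others. DERL3 fell by 0.44 ± 0.137 with MEL-6 added (adjusted p = 0.0194) and was lower than vehicle by 0.41 (adjusted p = 0.0362), and differed by 0.030 with R1881 (adjusted p = 0.876). The fall was not called without R1881 replicate 1 or 3 or MEL-6 replicate 3 (adjusted p = 0.0642 to 0.0686), nor the difference from vehicle without vehicle replicate 2 or 3, R1881 replicate 1 or 3, or MEL-6 replicate 2 or 3 (adjusted p = 0.0527 to 0.124). OS9, a lectin that reads trimmed glycans, averaged 76.3 ± 3.63, 71.4 ± 2.89 and 66.7 ± 2.03 RPKM with R1881 and MEL-6, R1881, and vehicle. It was called in the comparison of both agents with vehicle (0.19, adjusted p = 0.0167), but not without vehicle replicate 2 (adjusted p = 0.0634) or MEL-6 replicate 3 (0.0532).

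Of the 11 translocon and signal peptidase genes, 8 rose with R1881 and 9 fell with MEL-6 added. SEC61G (the small gamma subunit of the channel) had 79.7, 77.3 and 78.4 RPKM with R1881 and MEL-6, 163, 141 and 132 RPKM with R1881, and 88.3, 86.3 and 106 RPKM with vehicle. It rose by 0.63 ± 0.091 and fell by 0.88 ± 0.091 (adjusted p = 0.00028 and 2.19e-05). Its MEL-6 libraries were below all vehicle libraries, and the difference from vehicle, -0.25 ± 0.091, had an adjusted p of 0.054, which was under 0.05 without vehicle replicate 2 or R1881 replicate 1 or 3 (adjusted p = 0.035 to 0.0489). SEC61A1 (the pore subunit) averaged 185 ± 12.3, 221 ± 3.44 and 165 ± 7.40 RPKM, and SEC61B averaged 138 ± 11.5, 193 ± 4.62 and 120.2 ± 0.618 RPKM with R1881 and MEL-6, R1881, and vehicle. SEC61A1 and SEC61B rose by 0.42 and 0.68 with R1881 and fell by 0.26 and 0.48 with MEL-6 added. Their rises over vehicle with both agents, 0.16 and 0.20 (adjusted p = 0.0487 and 0.0242), did not hold when single libraries were left out. For SEC61A1 these were vehicle replicate 2 or 3, any R1881 replicate, and MEL-6 replicate 2 or 3 (adjusted p = 0.0657 to 0.149), and for SEC61B any vehicle replicate and MEL-6 replicate 3 (adjusted p = 0.0525 to 0.0656).

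Of the translocon-associated (TRAP) proteins, SSR2 had 242, 237 and 257 RPKM with R1881 and MEL-6, 281, 278 and 301 RPKM with R1881, and 176, 171 and 171 RPKM with vehicle. SSR3 had 72.0, 70.5 and 70.3 RPKM, 104, 96.0 and 94.7 RPKM, and 58.8, 64.0 and 55.9 RPKM in those groups. In both the MEL-6 libraries lay between the other groups with no overlap. SSR1 had 28.8, 27.8 and 26.9 RPKM, 43.2, 42.7 and 41.9 RPKM, and 26.6, 28.4 and 26.4 RPKM, and its MEL-6 libraries overlapped vehicle. SSR1, SSR2 and SSR3 rose by 0.64, 0.73 and 0.72 with R1881 and fell by 0.61, 0.22 and 0.46 with MEL-6 added. With both agents they differed from vehicle by 0.036, 0.51 and 0.25 (adjusted p = 0.612, 4.87e-05 and 0.00707).

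The signal peptidase subunits differed in direction. SPCS3 had 29.4, 30.0 and 29.1 RPKM with R1881 and MEL-6, 52.8, 49.4 and 46.4 RPKM with R1881, and 24.3, 29.5 and 24.8 RPKM with vehicle. SPCS2 had 6.29, 7.76 and 7.58 RPKM, 9.85, 10.0 and 9.23 RPKM, and 8.02, 8.47 and 7.75 RPKM in those groups. SPCS1 had 182, 184 and 195 RPKM, 159, 173 and 170.1 RPKM, and 188, 189 and 183 RPKM, the only member whose R1881 libraries were all below all vehicle libraries. SPCS3 rose by 0.91 ± 0.076 and fell by 0.74 ± 0.076 (adjusted p = 5.45e-06 and 2.23e-05). SPCS2 rose by 0.25 (adjusted p = 0.0313) and fell by 0.41 (adjusted p = 0.00203), and its rise was not called without vehicle replicate 1 or 3 or R1881 replicate 1 or 2 (adjusted p = 0.0709 to 0.0989). SPCS1 fell by 0.16 with R1881 and rose by 0.16 with MEL-6 added (adjusted p = 0.0267 and 0.0212). With median-of-ratios scaling neither SPCS1 difference was called (-0.037 and 0.061, adjusted p = 0.576 and 0.312). Its fall was not called without vehicle replicate 1 or 2 or R1881 replicate 1 (adjusted p = 0.066 to 0.11), nor its rise without R1881 replicate 1 or MEL-6 replicate 3 (0.0923 and 0.0686).

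SEC62 and SEC63 form the post-translational entry complex with Sec61. SEC62 averaged 18.1 ± 1.79, 21.6 ± 1.37 and 21.2 ± 2.26 RPKM and SEC63 averaged 32.4 ± 2.37, 31.3 ± 1.04 and 28.3 ± 1.74 RPKM with R1881 and MEL-6, R1881, and vehicle. Neither was called with R1881 (log2 0.028 and 0.14, adjusted p = 0.821 and 0.0987). SEC62 fell by 0.25 with MEL-6 added (adjusted p = 0.0407), a call lost without vehicle replicate 2, R1881 replicate 1 or 2, or MEL-6 replicate 2 or 3 (adjusted p = 0.0546 to 0.141). SEC63 was 0.19 above vehicle with both (adjusted p = 0.04), a call lost without vehicle replicate 1 or 2, any R1881 replicate, or MEL-6 replicate 1 or 2 (adjusted p = 0.0525 to 0.125).

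The KDEL receptors return escaped ER residents such as BiP from the Golgi. KDELR2 had 76.1, 79.1 and 81.4 RPKM with R1881 and MEL-6, 134, 139.7 and 136 RPKM with R1881, and 86.7, 89.1 and 80.4 RPKM with vehicle. KDELR3, a low gene with an estimated 22 to 98 reads per library, had 2.06, 1.34 and 1.54 RPKM, 2.80, 3.13 and 2.76 RPKM, and 1.66, 1.59 and 1.45 RPKM in those groups. In both the MEL-6 and vehicle libraries overlapped below the R1881 libraries. KDELR2 rose by 0.67 ± 0.052 and fell by 0.79 ± 0.052, and KDELR3 rose by 0.72 ± 0.128 and fell by 0.68 ± 0.128 (adjusted p = 2.85e-06, 8.18e-07, 0.00113 and 0.00135). Against vehicle with both agents the values were -0.11 ± 0.052 and 0.044 ± 0.128 (adjusted p = 0.113 and 0.816), and that of KDELR2 was called lower without vehicle replicate 3 (adjusted p = 0.0497).

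The 3 UPR genes had 3 patterns. ERN1, the sensor IRE1 (chromosome 17 at 62120390 to 62207502, GRCh37), had 11.0, 12.6 and 13.5 RPKM with R1881 and MEL-6, 14.9, 14.5 and 16.3 RPKM with R1881, and 5.01, 4.95 and 4.92 RPKM with vehicle. All libraries with R1881, with or without MEL-6, were above all vehicle libraries. ERN1 rose by 1.52 ± 0.080 with R1881 (adjusted p = 1.54e-07), fell by 0.30 ± 0.080 with MEL-6 added (adjusted p = 0.0102) and remained 1.23 ± 0.080 above vehicle (adjusted p = 1.92e-06), the largest difference of any member in that comparison. XBP1, whose mRNA ERN1 splices, had 122, 119 and 120.0 RPKM, 99.9, 102 and 102 RPKM, and 89.4, 91.4 and 90.2 RPKM in those groups, a rise at each step with no overlap. It rose by 0.16 ± 0.041 with R1881 and by 0.25 ± 0.041 with MEL-6 added (adjusted p = 0.00771 and 0.00052), and was 0.41 ± 0.041 above vehicle with both.

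ATF6, the sensor cleaved in the Golgi, had 35.4, 34.9 and 34.3 RPKM with R1881 and MEL-6, 26.2, 26.0 and 24.8 RPKM with R1881, and 26.7, 26.1 and 25.8 RPKM with vehicle. The R1881 and vehicle libraries overlapped and every MEL-6 library was above them. ATF6 rose by 0.43 ± 0.046 with MEL-6 added and by 0.41 ± 0.046 over vehicle (adjusted p = 2.58e-05 and 8.3e-05). Its difference with R1881 was -0.027 ± 0.046 (adjusted p = 0.655) and turned positive with either other scaling. Its paralog ATF6B, no member, had 17.0, 15.5 and 15.1 RPKM, 11.5, 12.9 and 11.1 RPKM, and 11.0, 10.9 and 13.5 RPKM in the same groups, and rose by 0.41 ± 0.09 with MEL-6 added (adjusted p = 0.00343).

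**Figure D4:**
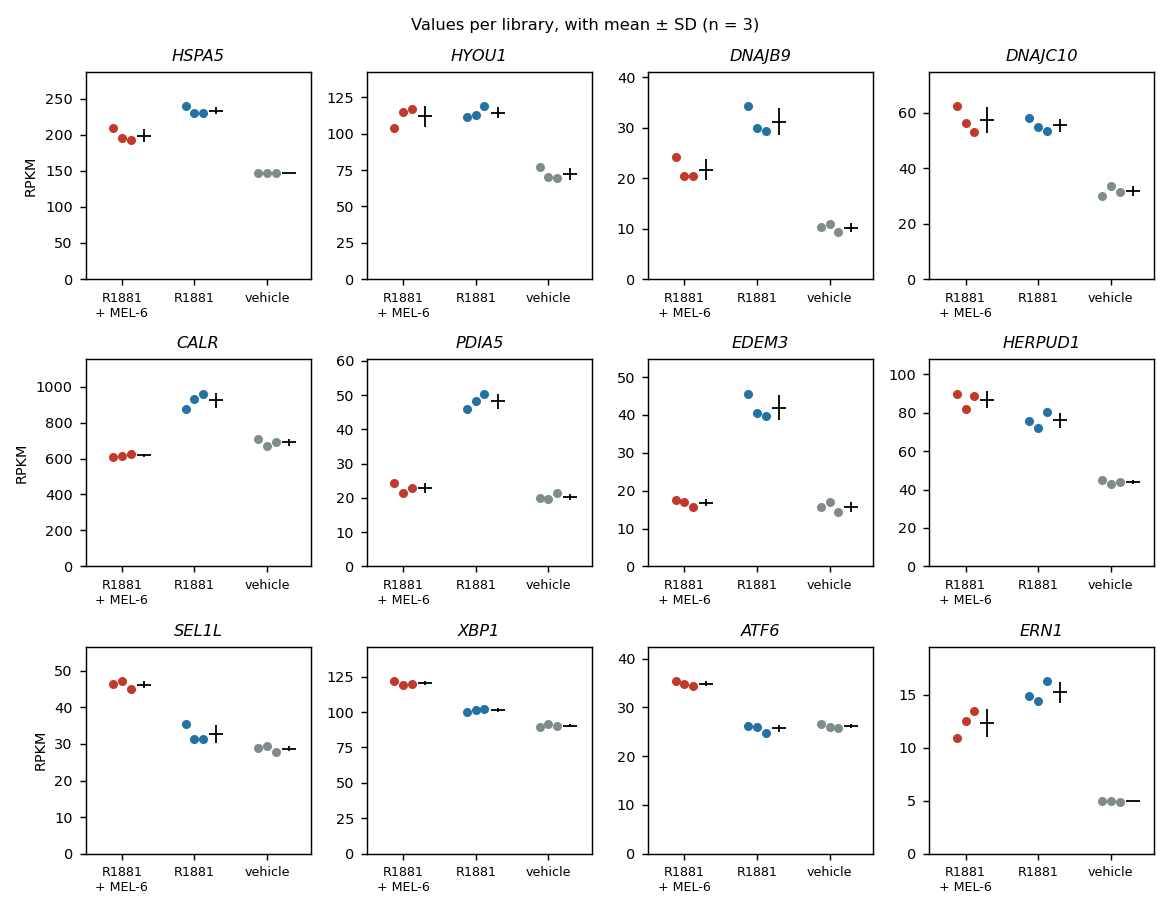
RPKM in each library (points) with mean and SD of 3 libraries (black) for 12 of the genes, with R1881 + MEL-6, R1881 and vehicle from left to right and axes from 0. In PDIA5 and EDEM3 the R1881 points stand alone above the other groups, in HERPUD1, SEL1L, XBP1 and ATF6 the MEL-6 points are highest, and in HYOU1 and DNAJC10 the MEL-6 and R1881 points overlap.

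A wider list of 71 other genes of the same pathways was described in the same way, and 70 passed the filter. CREB3L1, an ER-anchored transcription factor, was the one that did not, and was listed at 0 in 8 of 9 libraries. With R1881, 37 of the 70 rose and 10 fell (median 0.23), where 14.5% of all tested genes rose and 31.2% fell. With MEL-6 added 9 rose and 34 fell (median -0.16), where 31.4% of all genes rose and 20.6% fell. Against vehicle with both agents 19 were higher and 15 lower (median 0.021), where 17.2% of all genes were higher and 20.8% lower, and the share of lower genes was close to that of all genes. These shares are also the ones to set beside the counts of the smaller groups that follow, some of which are near them.

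Among these, the oligosaccharyltransferase, which attaches N-glycans to proteins as they enter the ER, had 8 of 9 subunits higher and none lower with R1881. With MEL-6 added 7 fell and none rose. With both agents 2 were above vehicle and none below, and 2 of 9 is near the 17.2% of all genes. The ribophorin RPN1 averaged 131 ± 5.58, 189 ± 8.35 and 139 ± 4.70 RPKM (SD, n = 3) with R1881 and MEL-6, R1881, and vehicle. It rose by 0.44 with R1881 and fell by 0.52 with MEL-6 added. Of the 16 other genes of ER entry 9 rose and 2 fell with R1881, and with MEL-6 added none rose and 8 fell. Against vehicle with both agents 3 were higher and 4 lower, near the shares of all genes (17.2% and 20.8%). SERP1, a Sec61-associated protein, averaged 113 ± 2.83, 149 ± 7.71 and 82.6 ± 6.83 RPKM. It rose by 0.85, fell by 0.40 and was 0.45 above vehicle with both. SEC11C, a catalytic subunit of signal peptidase, was 0.63 above vehicle with both agents (adjusted p = 0.00384) at 209, 147 and 149 RPKM, against 97.7, 102 and 125 RPKM with vehicle. SRP9 was lower than vehicle with both agents (log2 -0.38, adjusted p = 0.00143).

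Of 16 other ERAD genes, 7 rose and 3 fell with R1881, 2 rose and 8 fell with MEL-6 added, and 3 were higher and 5 lower than vehicle with both. The count of higher genes against vehicle was near the 17.2% of all genes. UBE2J1, the ER-anchored ubiquitin-conjugating enzyme, had 12.3, 10.6 and 11.2 RPKM with R1881 and MEL-6, 28.8, 28.0 and 29.1 RPKM with R1881, and 9.37, 10.7 and 9.42 RPKM with vehicle. The R1881 libraries were far above the rest, with changes of 1.50 ± 0.07 and -1.30 ± 0.07 (adjusted p = 7.36e-08 and 2.26e-07). With both agents UBE2J1 was 0.20 above vehicle (adjusted p = 0.0481), with overlapping libraries. VCP (p97, the ATPase that pulls proteins from the membrane) averaged 133 ± 16.6, 202 ± 2.63 and 159 ± 6.33 RPKM. It rose by 0.34 with R1881, fell by 0.61 with MEL-6 added and was lower than vehicle with both (log2 -0.27, adjusted p = 0.0244). SELS (selenoprotein S, a p97 anchor) rose by 0.74, fell by 0.47 and was 0.28 above vehicle with both (adjusted p = 0.00394). UFD1L, FAF2 and FOXRED2 were lower than vehicle with both agents (log2 -0.29, -0.28 and -0.28, adjusted p = 0.037, 0.00207 and 0.00371). The UFD1L difference was not called without vehicle replicate 1 or 3 (adjusted p = 0.0931 and 0.129), among other alternatives. FOXRED2 was also 1 of the 3 that fell with R1881 (log2 -0.33, adjusted p = 0.000949).

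Of 17 other folding genes, 6 rose and 3 fell with R1881, 3 rose and 6 fell with MEL-6 added, and 5 were higher and 4 lower than vehicle with both. The 3 that fell with R1881 were a smaller share than the 31.2% of all genes, and the 4 lower than vehicle were near the 20.8% of all genes. PPIB (cyclophilin B, a prolyl isomerase) averaged 453 ± 20.0, 598 ± 15.4 and 374 ± 20.2 RPKM, and rose by 0.68 and fell by 0.40. CLGN (calmegin, a calnexin relative known from testis) had 84.6, 69.0 and 70.2 RPKM with R1881 and MEL-6, 37.7, 38.2 and 32.9 RPKM with R1881, and 28.3, 29.7 and 30.3 RPKM with vehicle. Its MEL-6 libraries were above all others, with a rise of 1.03 ± 0.08 over R1881 and of 1.32 ± 0.08 over vehicle (adjusted p = 4.09e-06 and 1.71e-06). PDIA2, a tissue-restricted isomerase, rose by 0.81 with MEL-6 added (adjusted p = 0.00224), at 4.93, 3.60 and 3.31 RPKM against 2.24, 2.16 and 1.64 RPKM with R1881.

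Of the 12 tested genes of the UPR arms outside the 45, 7 rose and 2 fell with R1881, 4 rose and 5 fell with MEL-6 added, and 6 were higher and 2 lower than vehicle with both. The 4 that rose with MEL-6 added and the 2 lower than vehicle were near the 31.4% and 20.8% of all genes. CREB3L4, an ER-anchored factor of the ATF6 kind known from prostate, had 26.4, 31.9 and 29.6 RPKM with R1881 and MEL-6, 115, 119 and 115 RPKM with R1881, and 38.0, 36.3 and 35.3 RPKM with vehicle. Its MEL-6 libraries were below all vehicle libraries, with changes of 1.66 ± 0.07, -1.97 ± 0.07 and -0.32 ± 0.07 in the 3 comparisons (adjusted p = 2.04e-08, 7.23e-09 and 0.00411). EIF2AK3, the sensor PERK, averaged 12.8 ± 0.949, 14.2 ± 0.388 and 8.68 ± 0.326 RPKM with R1881 and MEL-6, R1881, and vehicle. It rose by 0.68 with R1881, was 0.53 above vehicle with both, and differed by -0.15 ± 0.07 with MEL-6 added (adjusted p = 0.0862), a fall that was called without MEL-6 replicate 1 (adjusted p = 0.0304) and with median-of-ratios scaling (0.0122).

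The transcripts DDIT3 (CHOP) and ATF4 fell with R1881, by 0.42 and 0.40. They rose with MEL-6 added, by 2.81 ± 0.05 and 1.27 ± 0.06 (adjusted p = 1.63e-10 and 6.22e-08). DDIT3 reached 103, 103 and 109.9 RPKM, against 14.9, 15.0 and 13.8 RPKM with R1881. Whether PERK had a part in these changes was not tested. PPP1R15A (GADD34, the phosphatase subunit that restores translation) was 1.19 ± 0.15 above vehicle with both agents (adjusted p = 0.00019).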

How the data were processed

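Polyadenylated RNA of 9 LNCaP wells, 3 labelled biological replicates in each of 3 groups, was sequenced, and groups were taken from the sample titles. The authors deposited 1 table with an RPKM value per gene and library on GRCh37 (hg19), with CASAVA 1.8 named beside the build per the submitters' processing notes. The unit was inferred from the values, which had library sums of 350381 to 365815 and low values that lay partly in even steps. Each other library was compared with the first vehicle library through its most common ratio among low genes. Of 1439 to 1756 low genes compared, 264 to 351 lay at that ratio. Of 673 low genes tried, 35.1% had values in whole steps in all 9 libraries. The aligner, annotation, read filters and use of strand are not given in the sources used here. Relative depth came from those ratios. Read totals were estimated from the steps with GENCODE exon lengths, so they are approximate. The table had 25142 entries. The 17 entries whose names had become dates were left out, as were 20 Y copies of X genes, which were at 0.

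The 45 members were matched by symbol. A gene was tested if 3 or more libraries reached 0.5 RPKM (13283 genes), with limma-trend (limma 3.58.1, R 4.3.3) on log2(RPKM + 0.5), with all 9 libraries in 1 model of 3 group means and no further scaling. Tests were two-sided, p-values were adjusted by Benjamini-Hochberg over all tested genes, and calls were made at an adjusted p under 0.05. On this scale the change of low genes is understated. The procedure was tested only on simulated data with independent noise and a small set of genes shifted in 1 group. Differences in depth and changes in many genes were not simulated. Replicates correlated at 0.985 to 0.994 (Pearson's r across genes). The 17 alternatives changed the pseudocount (0.1 or 1), the filter (1 RPKM or none), the scaling (median of ratios or upper quartile), the replicate block, the groups fitted, and the libraries, leaving out each in turn.

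Members, role groups and the wider list were chosen with earlier results of these data known. Every member was described. Library values were given for up to 4 per role group with the largest called change in the comparisons with R1881 against vehicle and with MEL-6 added, for those at least 0.5 from vehicle with both agents, and for those against their group. Of the wider list up to 3 per role group and comparison were eligible by size among called genes, and ATF6B was added after its values were seen. Without knowledge of strand, 14 members whose exons overlap a coding gene on the other strand in GENCODE (HSP90B1, CANX, DNAJB9, DNAJB11, CRELD2, PDIA3, PDIA6, SYVN1, DERL1, DERL2, DERL3, SEC61A1, SPCS1 and KDELR3) may hold reads of that gene, and 5 with named pseudogenes (PDIA3, SEC63, SSR1, SPCS2 and XBP1) may share reads with them. Protein ends were not analysed here.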

Additional observations from a re-analysis of the deposited data

How the results depend on the processing

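Of the 40 members called with R1881, 37 were called in the same direction in all 17 alternatives, all higher. With MEL-6 added it was 32 of 37, of which 3 were higher (SEL1L, XBP1 and ATF6), and for both agents against vehicle 17 of 26, all higher. Members lost in at least 1 alternative were SEL1L, SPCS1 and SPCS2 with R1881, DERL3, ERP44, HERPUD1, SEC62 and SPCS1 with MEL-6 added, and CALR, DERL1, DERL2, DERL3, ERP44, OS9, SEC61A1, SEC61B and SEC63 against vehicle. Members called in at least 1 alternative only were OS9 and SEC63 with R1881 (both with either other scaling), CANX, EDEM1, EDEM2 and ERO1L with MEL-6 added, and KDELR2, MANF, P4HB, PDIA4, PDIA5, SEC61G, SEC62 and SPCS3 against vehicle. The scaling moved the medians: with median of ratios the members' medians were 0.75 with R1881 and -0.49 with MEL-6 added, those of all genes -0.0094 and -0.0165, those of the wider list 0.35 and -0.26, and 2532 genes were lower with R1881. By construction such scaling centres the typical gene. With it 0 members (4 of the wider list) were lower with R1881, 3 were higher with MEL-6 added and 1 was lower than vehicle with both. With upper-quartile scaling 0 were lower with R1881 and 1 was lower than vehicle. The members lower than vehicle with both numbered 2 without a filter, 1 with the replicate block and 0 with only the 2 groups compared.

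When single libraries were left out, 0 to 1 members were lower with R1881, 3 to 5 were higher with MEL-6 added (median -0.40 to -0.32), 1 to 4 were lower than vehicle with both, and 6 to 10 of the wider list were lower with R1881. Some differences near 0 turned sign. With MEL-6 added these were DNAJC10, SEC63 and OS9 with median of ratios (-0.054, -0.049 and -0.0056), and without single libraries HYOU1 (-0.065 to 0.020), DNAJC10 (-0.016 to 0.098) and SEC63 (-0.0065 to 0.094). With R1881 they were ATF6 with median of ratios and upper quartile (0.092 and 0.017), and without single libraries DERL3 (-0.075 to 0.12) and SEC62 (-0.046 to 0.10). Against vehicle, without single libraries, they were SDF2L1 (-0.074 to 0.21), PDIA3 (-0.048 to 0.0057), PDIA6 (-0.064 to 0.011), SPCS1 (-0.029 to 0.022) and KDELR3 (-0.091 to 0.15). None of these was called in either fit. The causes were not tested.

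Deviations from the group means of libraries with the same replicate number correlated at r of -0.197 to 0.198. With 3 libraries per group, these values cannot decide whether such libraries were paired. With the number as a replicate block, 39 members were higher and 1 lower with R1881, 5 higher and 31 lower with MEL-6 added, and 20 higher and 1 lower than vehicle with both. Depth limits DERL3 and KDELR3 most.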

Other observations

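Summed over the 12 chaperones, RPKM was 1961.4, 1918.7 and 1905.9 with R1881 and MEL-6, 2548.1, 2587.0 and 2614.1 with R1881, and 1804.7, 1754.4 and 1801.4 with vehicle, sums led by CALR and HSP90B1. The 7 disulfide enzymes summed to 833.0, 861.3 and 899.5, 1123.8, 1152.7 and 1200.2, and 823.9, 778.5 and 794.4 RPKM in those groups, led by P4HB. The 10 ERAD genes, led by HERPUD1 and OS9, summed to 346.5, 341.8 and 349.9, 384.0, 365.5 and 379.7, and 265.6, 267.2 and 261.9 RPKM. The 11 translocon and signal peptidase genes summed to 995.2, 1008.5 and 1058.0, 1279.8, 1250.3 and 1269.9, and 908.5, 909.3 and 908.2 RPKM. The 2 KDEL receptors, nearly all KDELR2, summed to 78.2, 80.4 and 82.9, 136.9, 142.8 and 138.4, and 88.3, 90.6 and 81.9 RPKM. The 3 UPR genes, led by XBP1, summed to 168.3, 166.6 and 167.8, 141.0, 142.2 and 143.4, and 121.1, 122.4 and 120.9 RPKM. For the chaperone, disulfide, ERAD and translocon sums every MEL-6 library was above every vehicle library and below every R1881 library. For the KDEL receptors the MEL-6 libraries overlapped vehicle and had the lower mean, and for the UPR genes they were highest.

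MBTPS2 (site-2 protease, which finishes the cleavage of ATF6) averaged 15.2 ± 1.22, 23.5 ± 1.46 and 19.0 ± 0.945 RPKM (SD, n = 3) with R1881 and MEL-6, R1881, and vehicle. It rose by 0.29 with R1881, fell by 0.62 with MEL-6 added and was lower than vehicle with both (log2 -0.32, adjusted p = 0.0059), whereas its partner MBTPS1 was not called in any of the 3 comparisons. MBTPS2 was picked out after its values were seen.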
